A study of Homo sapiens with 8 samples.

Results

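The genes described here serve the DNA damage checkpoint and DNA repair. The list holds 57 members, taken by name from the main branches of the response. Of these, 51 had a probe set on the array annotated to that gene and no other, and 49 lay above the filter on dim genes, out of 19776 genes named and 9888 tested. A probe set is a group of short probes that together report a transcript, and each gene was read from its brightest such probe set. The probe sets of ATRIP and PMS2 are annotated to a second gene as well and were not used. BRCA2, RBBP8, FANCA and FANCD2 were not analysed here. CLSPN and XRCC3 were measured but lay under the filter.

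Expression was measured on 8 Affymetrix arrays from 4 established human lines of neuroblastoma, a tumour of the sympathetic nervous system: SK-N-DZ, SH-SY5Y, NB-39-nu and SK-N-BE. Each line gave a control array, from cells infected with the empty pLKO.1 lentiviral vector (shCont), and a knockdown array, from cells infected with the same vector carrying the hairpin shBMI1-1 against BMI1, a Polycomb subunit that represses transcription. All cells were grown in serum-containing medium with polybrene at infection, and RNA was taken between day 8 and day 14, with the day of each culture not stated. A single hairpin was used, each line is 1 model with 1 array per condition, and no agent that damages DNA is named in the labels. The lines therefore serve as the replicates of the knockdown (n = 4), and a ratio within a line has no replicate.

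A cell meets DNA damage with sensors, kinases and repair enzymes. ATM is the kinase that answers double-strand breaks, and ATR answers stretches of single-stranded DNA at stalled replication forks. They activate CHEK2 and CHEK1, which hold the cell cycle. Breaks are then joined directly by end joining, or copied from the sister chromatid by homologous recombination. Crosslinks need the Fanconi anaemia proteins, and damaged or mismatched bases are cut out by excision and mismatch repair. Many of the genes for recombination and for the replication checkpoint are expressed mainly in cycling cells. In these bulk arrays, fewer cells expressing a gene and less RNA per cell cannot be told apart.

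BMI1 signal after the hairpin was 24.6% of control in NB-39-nu, 39.4% in SK-N-DZ, 65.0% in SK-N-BE and 65.5% in SH-SY5Y. Its mean log2 ratio was -1.15 ± 0.67 (SD, n = 4 lines), lower in 4 of 4 lines, and the hairpin's target did not itself pass the test across all genes (limma adjusted p = 0.276). Median signals of the arrays lay between 69.9 and 79.8. Of 11 neuroblastoma markers measured, between 10 and 11 were above the table median on each array. TH, the first enzyme of catecholamine synthesis, read between 2.80 and 7.19 on the arrays of NB-39-nu and SK-N-BE and between 67.0 and 172 in the other lines. The summed signal of the 4 blood markers measured was at most 349 on any array and that of the 3 endothelial markers at most 302, and the 5 epithelial markers summed to between 296 and 1083. The 7 mesenchymal or Schwann markers summed to 3103 in control and 5641 in knockdown cells of NB-39-nu, while SH-SY5Y gave 4725 and 4226, SK-N-BE gave 1019 and 969, and SK-N-DZ gave 11076 and 14536. The endothelial sum was 112 and 275 in NB-39-nu, against 75.9 and 94.6 for SH-SY5Y. Their part in the results was not tested. The number of arrays limits the precision of everything below.

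No member passed the test of knockdown over the 4 lines. In a limma fit with cell line as a block, adjusted over all tested genes, 0 of 49 members were called, where 1 of 9888 genes was called (0.0101%). At an unadjusted p under 0.05 the fit gave 4 members, ATM and FANCG lower and NBN and OGG1 higher. That is 8.16% of the members, beside 9.33% of all tested genes (4.36% lower and 4.98% higher). The median member had a mean log2 ratio of 0.01, beside 0.03 for all tested genes, and the members ran from -0.40 to 0.45.

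Of the 49 members, 6 were lower in every line and 4 higher in every line. The genes lower in all 4 lines were ATM, ATR, TOPBP1, MDC1, RAD51C and FANCG, which is 12.2% of the tested members beside 7.65% of all tested genes. With the mean of all probe sets per gene, ATM, ATR and MDC1 left this group and HUS1 and XRCC4 entered it, and with quantile normalization MRE11 took the place of MDC1. The genes higher in all 4 lines were NBN, OGG1, RNF8 and ERCC1, which is 8.16% beside 10.6%. Both directions together took 20.4% of members and 18.2% of all tested genes. An exact sign-flip test of a single gene over 4 lines, two-sided, cannot go below p = 0.125, so no test of direction was made. The plot of within-line ratios shows each member in each line.

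**Figure D1:**
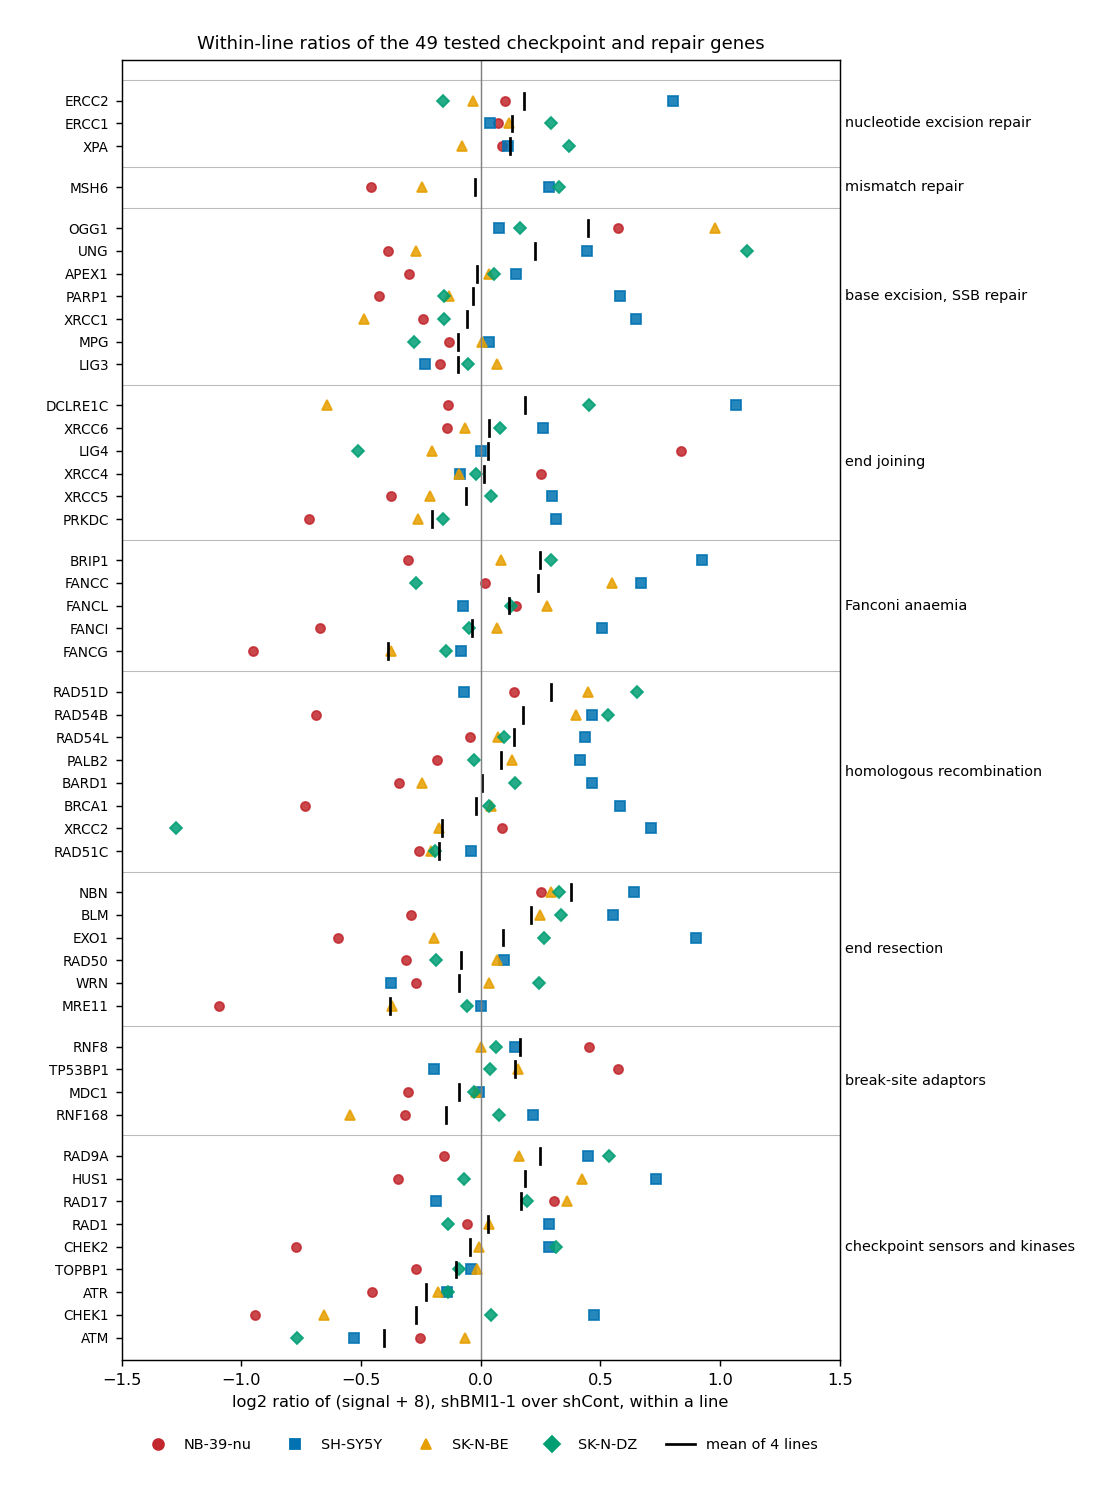
Log2 ratio of shBMI1-1 over shCont (x axis, from signal + 8) for the 49 tested members (y axis, grouped by pathway), with a symbol per cell line and a black bar at the mean of the 4 lines. Most bars lie close to 0, between -0.40 for ATM and 0.45 for OGG1, while red circles (NB-39-nu) sit mostly to the left of 0 and blue squares (SH-SY5Y) mostly to the right.

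ATM read 516 on the control array and 432 on the knockdown array of NB-39-nu. SH-SY5Y gave 1449 and 1001, SK-N-BE gave 1790.2 and 1710.5, and SK-N-DZ gave 606 and 353. It was lower after the hairpin in each line, and the control and knockdown groups overlapped. Its mean log2 ratio was -0.40 ± 0.31 (SD, n = 4 lines; limma adjusted p = 0.499). A dimmer ATM probe set, also above the filter, averaged 0.0016, with positive ratios in NB-39-nu (0.26) and SH-SY5Y (0.30), so the shared direction rests on a single probe set.

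FANCG, a subunit of the Fanconi core complex that adds ubiquitin to FANCD2 and FANCI, read 1413 in control and 726 in knockdown cells of NB-39-nu. SH-SY5Y gave 743 and 702, SK-N-BE gave 942 and 725, and SK-N-DZ gave 988 and 892. The control array of NB-39-nu was the highest, and all knockdown arrays lay between 702 and 892. The mean log2 ratio was -0.39 ± 0.40 (SD, n = 4 lines; limma adjusted p = 0.526), led by -0.95 in NB-39-nu. FANCG has a single probe set on this array.

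NBN encodes nibrin, which tethers the MRE11 and RAD50 nuclease complex to breaks and brings ATM to it. It read 1689 (control) and 2015 (knockdown) in NB-39-nu, while SH-SY5Y gave 1463 and 2285, SK-N-BE gave 2562 and 3142.5, and SK-N-DZ gave 1652 and 2072. The knockdown array was the higher of each pair, and 3 of the 4 knockdown arrays still lay under the SK-N-BE control. The mean log2 ratio was 0.38 ± 0.18 (SD, n = 4 lines; limma adjusted p = 0.404). Dimmer NBN probe sets above the filter had means from -0.12 to 0.10, and none of them was higher in all lines.

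OGG1, the glycosylase that removes oxidised guanine, read 449 and 671 in NB-39-nu, while SH-SY5Y gave 584 and 617, SK-N-BE gave 176 and 354, and SK-N-DZ gave 622 and 698. Its level was lowest in SK-N-BE, where the log2 ratio was highest at 0.98. The mean was 0.45 ± 0.41 (SD, n = 4 lines; limma adjusted p = 0.522), and the other OGG1 probe set above the filter averaged 0.13, with negative ratios in NB-39-nu (-0.18) and SK-N-BE (-0.05).

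**Figure D2:**
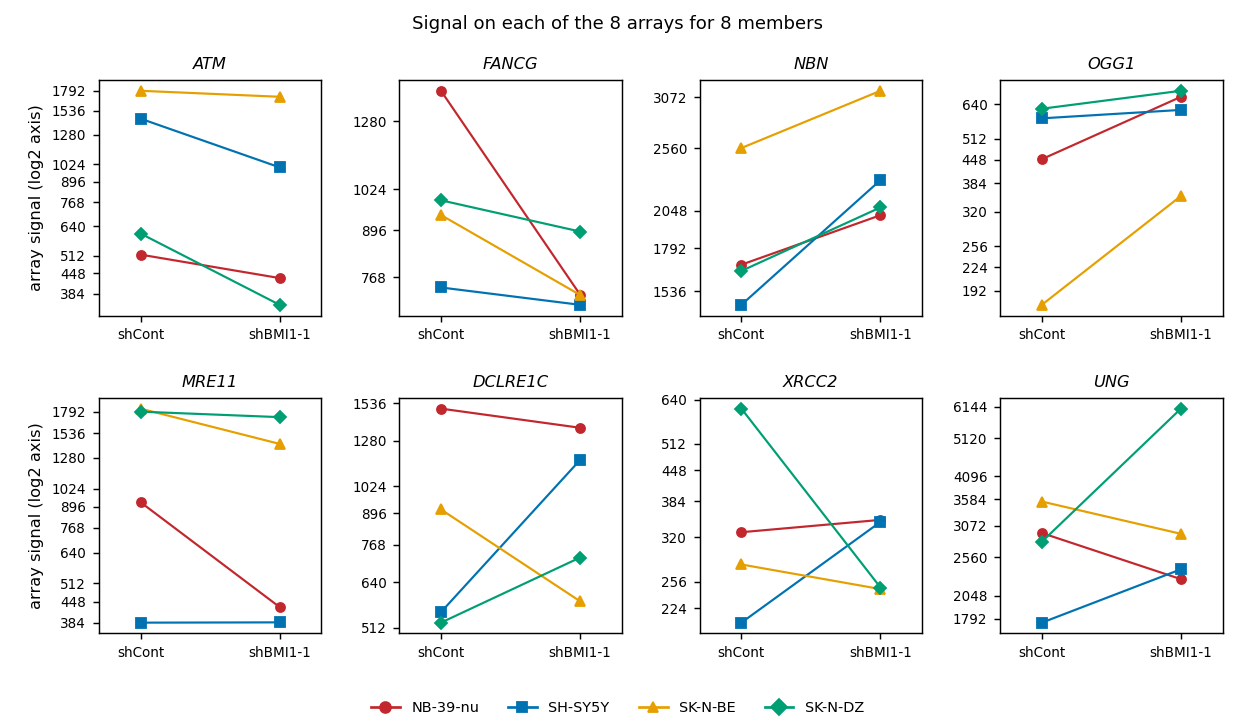
Array signal (y axis, log2 scale) on the control and knockdown array of each line (x axis), with a line joining the arrays of a cell line, for ATM, FANCG, NBN and OGG1 (top) and for the 4 tested members with a ratio of at least 2-fold within a line (bottom). MRE11 goes from 927 to 431 in NB-39-nu, DCLRE1C from 553 to 1164 in SH-SY5Y, XRCC2 from 612 to 249 and UNG from 2803 to 6075 (both in SK-N-DZ).

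The near-zero means hid opposite ratios in NB-39-nu and SH-SY5Y. In NB-39-nu, where BMI1 signal was lowest as a percent of control, 35 of 49 members were lower after the hairpin (71.4%). There, 47.2% of all tested genes were lower, and 14 members were higher (28.6% beside 52.8%). In SH-SY5Y, 35 of 49 were higher (71.4%), where 52.4% of all tested genes were, and 14 were lower (28.6% beside 47.6%). The median member ratio was -0.26 in NB-39-nu and 0.28 in SH-SY5Y, beside medians of 0.03 and 0.02 for all tested genes. The member median was -0.01 in SK-N-BE, with 25 lower and 24 higher (51.0% lower, beside 47.2% lower and 52.8% higher), and 0.04 in SK-N-DZ, with 22 lower and 27 higher (44.9% and 55.1%, beside 44.9% and 55.1%).

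Larger ratios followed the same split. In NB-39-nu, 9 members were at least 1.5-fold lower (18.4% beside 8.5% of all tested genes): BRCA1, CHEK1, CHEK2, EXO1, FANCG, FANCI, MRE11, PRKDC and RAD54B. LIG4 alone was at least 1.5-fold higher there (2.04% beside 12.9%), and no member was at least 2-fold higher, beside 4.74%. In SH-SY5Y, 9 members were at least 1.5-fold higher (18.4% beside 4.88%): BRIP1, DCLRE1C, ERCC2, EXO1, FANCC, HUS1, NBN, XRCC1 and XRCC2. None was at least 1.5-fold lower, beside 3.8%, or 2-fold lower, beside 0.87%. In SK-N-BE, CHEK1 and DCLRE1C were at least 1.5-fold lower (4.08% beside 3.35%) and OGG1 higher (2.04% beside 4.8%), with no member 2-fold lower or higher, beside 0.475% and 1.02%. In SK-N-DZ, ATM and XRCC2 were at least 1.5-fold lower (4.08% beside 4.39%) and RAD51D and UNG higher (4.08% beside 4.32%).

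In all, 27 members were lower in NB-39-nu and also higher in SH-SY5Y, which is 55.1% of those tested, beside 26.2% of all tested genes. The reverse pair of signs held for 6 members (12.2% beside 26.6%): FANCL, LIG4, RAD17, RAD51D, TP53BP1 and XRCC4. Some of these signs rest on ratios near 0 in SH-SY5Y, such as LIG4 at -0.0004 and, among the 27, MRE11 at 0.0031. This pairing of lines was picked after the values were seen, and each line contributes 1 ratio, so the difference between lines was not tested. Other probe sets did not always repeat it. Of the 27 members, 11 had another probe set above the filter, and in 5 of them, CHEK1, BRIP1, FANCI, MSH6 and PRKDC, each such probe set was again lower in NB-39-nu and higher in SH-SY5Y. Of the 6 members with the reverse signs, LIG4, RAD17, TP53BP1 and XRCC4 had another probe set above the filter, and none of those probe sets repeated the reverse signs.

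The medians of the proliferation genes had the same signs in these lines and were larger in size. Of 26 tested genes for replication and mitosis, 25 were lower in NB-39-nu and all 26 higher in SH-SY5Y, with medians of -0.60 and 0.64. The SK-N-BE median was -0.17 and that of SK-N-DZ 0.18. MKI67, a marker of cycling cells, was at -1.18 in NB-39-nu and 1.05 in SH-SY5Y, and the replication helicase gene MCM2 at -0.63 and 1.04. None of the 26 passed over the 4 lines, also at an unadjusted p under 0.05 in limma. The part of proliferation in the ratios of the repair genes was not tested.

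Among the checkpoint genes, both effector kinases were lower in NB-39-nu and higher in SH-SY5Y. CHEK1, the kinase that restrains CDC25 phosphatases when replication stalls, read 2078 and 1076 in NB-39-nu, while SH-SY5Y gave 720.5 and 1002, SK-N-BE gave 3136 and 1988, and SK-N-DZ gave 570.3 and 587. The knockdown array was lower in the lines with the highest control signals, NB-39-nu and SK-N-BE, and 2 dimmer probe sets above the filter had the same signs in each line. The log2 ratios were -0.94, 0.47, -0.66 and 0.04 in that order (mean -0.27 ± 0.65, limma adjusted p = 0.727). CHEK2, which relays the ATM signal, was at -0.77 in NB-39-nu, with a ratio of 0.28 in SH-SY5Y, and near that in SK-N-DZ (0.32) but not SK-N-BE (-0.01).

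ATR was at -0.46 in NB-39-nu and between -0.18 and -0.14 in the other lines, and its dimmer probe set above the filter had a mean of -0.15. TOPBP1, which activates ATR, was at -0.27 in NB-39-nu and between -0.09 and -0.01 elsewhere. RAD17 loads the clamp made of RAD9A, HUS1 and RAD1 onto DNA, and was lower only in SH-SY5Y among the 4 lines (-0.19), with ratios of 0.31 in NB-39-nu, 0.36 for SK-N-BE and 0.19 for SK-N-DZ. The clamp subunits had means of 0.25 (RAD9A), 0.19 (HUS1) and 0.03 (RAD1), and each was lower in NB-39-nu and higher in SH-SY5Y. The other HUS1 probe set above the filter was lower in SH-SY5Y as well (-0.12). Only the brightest of the other RAD1 probe sets above the filter repeated these signs. CLSPN, which bridges ATR and CHEK1, was too dim to test, with signals of at most 159.

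The adaptors that gather at breaks had a median ratio of 0.03 over the 4 lines. MDC1, which binds phosphorylated histone at the break, was at -0.30 in NB-39-nu and between -0.03 and -0.0049 in the other lines. A dimmer MDC1 probe set above the filter was higher in each line, with a mean of 0.14. TP53BP1, which favours end joining over resection, read 582 and 869 in NB-39-nu, while SH-SY5Y gave 1667.5 and 1456, SK-N-BE gave 1338 and 1492, and SK-N-DZ gave 1741 and 1790.1. Its ratio was 0.57 in NB-39-nu and -0.20 in SH-SY5Y. The ubiquitin ligases RNF8 and RNF168 had means of 0.17 ± 0.20 and -0.14 ± 0.35 (SD, n = 4 lines). RNF8 was at 0.45 in NB-39-nu and at most 0.14 in the other lines.

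MRE11, the nuclease that opens resection of broken ends, read 927 and 431 in NB-39-nu, while SH-SY5Y gave 384 and 385, SK-N-BE gave 1836 and 1419, and SK-N-DZ gave 1796 and 1725. Over the lines its mean was -0.38 ± 0.50 (SD, n = 4 lines; limma adjusted p = 0.579). Its ratio of -1.09 in NB-39-nu was the only member value there past 2-fold. There 2.04% of members were at least 2-fold lower, beside 1.94% of all tested genes. Its partner RAD50 lay between -0.31 and 0.10. The other RAD50 probe sets above the filter were lower in SH-SY5Y (-0.64 and -0.06). The nuclease EXO1 was at -0.59 in NB-39-nu and 0.90 in SH-SY5Y, and the helicase BLM at -0.29 and 0.55, whereas the helicase WRN was lower in both, at -0.27 and -0.37.

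Of the recombination genes, BRCA1 was at -0.73 in NB-39-nu, 0.58 in SH-SY5Y and near 0 in the other lines (0.05 and 0.03). Its partner BARD1 was at -0.34 in NB-39-nu and 0.46 in SH-SY5Y. A dimmer BARD1 probe set above the filter repeated these signs (-0.71 and 0.17), and the dimmest above the filter was higher in both lines (0.24 and 0.90). RAD54B, a motor protein that helps strand exchange, was at -0.69 in NB-39-nu and between 0.40 and 0.53 in the other lines, and the related RAD54L was between -0.05 and 0.44. PALB2, which links BRCA1 to BRCA2, ran from -0.18 to 0.41.

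RAD51C, RAD51D and XRCC2, which serve strand exchange, differed in direction. RAD51C was lower in 4 of 4 lines (mean -0.18 ± 0.09, SD, n = 4 lines; limma adjusted p = 0.605), and its other probe set above the filter had a mean of -0.24. RAD51D was at 0.29 ± 0.32. XRCC2 read 612 and 249 in SK-N-DZ, a log2 ratio of -1.27, while SH-SY5Y gave 208 and 346, NB-39-nu gave 328 and 349, and SK-N-BE gave 279 and 247. Its mean was -0.16 ± 0.83 (SD, n = 4 lines; limma adjusted p = 0.889). XRCC3 was too dim to test, with signals of at most 74.7.

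In the Fanconi group, FANCI, which is clamped onto DNA with FANCD2, was at -0.67 in NB-39-nu and 0.51 in SH-SY5Y. BRIP1, the helicase that works with BRCA1, was at -0.31 in NB-39-nu and 0.92 in SH-SY5Y, where it read 1419.7 and 2702.5. FANCC, a core complex subunit, was at 0.67 in SH-SY5Y and 0.55 in SK-N-BE but -0.27 in SK-N-DZ. FANCL, the ligase of the complex, lay between -0.07 and 0.28.

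The end joining genes had a median ratio of 0.02 over the 4 lines. XRCC5 and XRCC6 encode the Ku proteins that cap broken ends, with means of -0.06 ± 0.30 and 0.03 ± 0.18 (SD, n = 4 lines). The next brightest XRCC5 probe set was higher in each line, with a mean of 0.22. PRKDC, the partner kinase of Ku, was at -0.72 in NB-39-nu and 0.31 in SH-SY5Y, with a mean of -0.21 ± 0.42. LIG4, the ligase of the pathway, was at 0.84 in NB-39-nu (567 and 1019) and -0.51 in SK-N-DZ, and its dimmer probe set above the filter was at 0.59 in NB-39-nu but 0.88 in SH-SY5Y. Its cofactor XRCC4 was at 0.25 in NB-39-nu and between -0.09 and -0.02 elsewhere, whereas both other XRCC4 probe sets above the filter were lower in NB-39-nu (-0.28 and -0.51).

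DCLRE1C, the Artemis nuclease, read 1498 and 1364 in NB-39-nu, while SH-SY5Y gave 553 and 1164, SK-N-BE gave 914 and 583, and SK-N-DZ gave 525 and 722. Its mean was 0.19 ± 0.74 (SD, n = 4 lines; limma adjusted p = 0.840). Its ratio of 1.06 in SH-SY5Y was the only member value past 2-fold in that line (2.04% of members beside 0.769% of all tested genes). The DCLRE1C probe sets disagreed there. The other 2 above the filter were at -0.06 and 0.28 in SH-SY5Y.

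In base excision, UNG, which removes uracil from DNA, read 2949 and 2255 in NB-39-nu, while SH-SY5Y gave 1752 and 2388, SK-N-BE gave 3541 and 2935, and SK-N-DZ gave 2803 and 6075. The knockdown array of SK-N-DZ stood above all others, at a log2 ratio of 1.11 (mean over lines 0.23 ± 0.70, limma adjusted p = 0.778). UNG was the only member at least 2-fold higher in that line and XRCC2 the only one at least 2-fold lower (2.04% of members each, beside 1.1% and 1.16% of all tested genes). The break sensor PARP1 was at -0.43 in NB-39-nu and 0.58 in SH-SY5Y, and its partner scaffold XRCC1 at -0.24 and 0.65. APEX1, MPG and LIG3 had means between -0.10 and -0.01. The other LIG3 probe sets above the filter had means from -0.50 to 0.19. MSH6, which recognises mismatches, was at -0.46 in NB-39-nu and 0.28 in SH-SY5Y, with a mean of -0.02 over the lines.

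Of the 3 nucleotide excision genes tested, none was lower in NB-39-nu, where 47.2% of all tested genes were. Their ratios there were small, from 0.07 to 0.10. ERCC1, a subunit of the nuclease that cuts beside the lesion, was higher in 4 of 4 lines, between 0.04 and 0.30. XPA, which verifies the lesion, lay between -0.08 and 0.37. ERCC2, a helicase of the transcription factor TFIIH, was at 0.81 for SH-SY5Y, against -0.16 to 0.10 elsewhere.

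Promoter sequence was set beside these ratios, since 27 members shared opposite signs in NB-39-nu and SH-SY5Y. RefSeq promoters of build GRCh38.p14 matched 50 of the 57 members by symbol, and the 250 bases before each annotated start were searched on both strands for 3 motifs. These were the CCAAT box (CCAAT), an E2F-type pattern (TTTNNCGC, where N is any base) and a CHR-type site (TTTGAA). Motifs of these types are known from cell cycle promoters. The E2F-type pattern leaves bases open, so a match need not be an E2F site. The sequences below, read 5′ to 3′ on the strand of the gene, have matches in capitals. The first 4 belong to members that were lower in NB-39-nu and higher in SH-SY5Y, FANCG was lower in all lines, and OGG1 was higher in all lines. MRE11 was higher in SH-SY5Y by only 0.0031 on the log2 scale. The windows printed are examples.
CHEK2 (chr22:28741821-28742070, minus strand): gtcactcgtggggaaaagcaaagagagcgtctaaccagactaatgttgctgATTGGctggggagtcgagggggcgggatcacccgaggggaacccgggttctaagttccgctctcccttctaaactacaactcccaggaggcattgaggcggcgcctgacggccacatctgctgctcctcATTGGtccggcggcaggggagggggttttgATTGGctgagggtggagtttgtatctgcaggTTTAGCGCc
XRCC6 (chr22:41621045-41621294, plus strand): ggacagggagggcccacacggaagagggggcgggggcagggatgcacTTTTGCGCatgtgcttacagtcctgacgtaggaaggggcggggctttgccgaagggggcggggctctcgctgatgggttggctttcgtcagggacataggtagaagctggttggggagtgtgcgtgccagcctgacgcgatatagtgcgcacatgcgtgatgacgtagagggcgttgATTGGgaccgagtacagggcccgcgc
MRE11 (chr11:94493845-94494094, minus strand): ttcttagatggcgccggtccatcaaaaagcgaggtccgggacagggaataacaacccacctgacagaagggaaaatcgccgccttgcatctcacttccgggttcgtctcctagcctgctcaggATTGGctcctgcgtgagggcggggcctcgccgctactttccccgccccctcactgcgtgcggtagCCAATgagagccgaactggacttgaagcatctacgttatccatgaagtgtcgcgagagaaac
BRIP1 (chr17:61863529-61863778, minus strand): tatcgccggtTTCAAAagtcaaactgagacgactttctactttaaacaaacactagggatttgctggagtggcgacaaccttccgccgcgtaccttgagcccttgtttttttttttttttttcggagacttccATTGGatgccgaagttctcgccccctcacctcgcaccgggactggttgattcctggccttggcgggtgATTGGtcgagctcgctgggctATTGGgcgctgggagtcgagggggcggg
FANCG (chr9:35079943-35080192, minus strand): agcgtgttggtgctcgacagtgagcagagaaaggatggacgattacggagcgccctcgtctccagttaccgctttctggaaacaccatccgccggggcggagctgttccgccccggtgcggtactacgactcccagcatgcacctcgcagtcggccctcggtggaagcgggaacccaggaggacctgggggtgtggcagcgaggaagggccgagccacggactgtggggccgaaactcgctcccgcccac
OGG1 (chr3:9749702-9749951, plus strand): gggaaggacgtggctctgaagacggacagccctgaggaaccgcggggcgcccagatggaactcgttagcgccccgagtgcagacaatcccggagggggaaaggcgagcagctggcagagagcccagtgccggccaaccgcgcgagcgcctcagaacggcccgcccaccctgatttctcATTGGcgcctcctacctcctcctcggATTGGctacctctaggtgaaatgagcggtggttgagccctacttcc

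CHEK2 and XRCC6 each held an E2F-type match, and CHEK2 and BRIP1 held 3 CCAAT boxes each. No motif was matched in the FANCG window, nor in those of the opposite members BARD1, RAD50, RAD1, PARP1 and RNF168, which are not printed. For the shares, a gene was counted where any of its annotated promoters matched, so genes with more promoters had more chances. Of the 50 members with a promoter, 33 had a single one. Over the 22 opposite members with a promoter in the table, 16 held a CCAAT box (72.7%) and 4 an E2F-type match (18.2%). Over the 20 other tested members with a promoter, 9 held a CCAAT box (45.0%) and 1 an E2F-type match (5.0%). Of all 27305 genes in the table, 37.0% held a CCAAT box, 7.15% an E2F-type match and 16.1% a CHR-type match. The CHR-type match was in 3 of the 22 opposite members (13.6%) and in 5 of the 20 others. Proliferation genes held a CCAAT box in 17 of 22 cases, an E2F-type match in 9 and a CHR-type match in 6 (27.3%). The opposite group was chosen from the ratios, so these shares describe it and carry no test. A match is a match of letters only.

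The lines differed in the level of most of these genes. A limma F test between lines, with condition as a covariate, called 35 of 49 members (71.4%), beside 79.9% of all tested genes. Lines were at least 2-fold apart for 25 of them (51.0%, beside 57.4% of all tested genes). The members' shares lay under those of all tested genes. The test sets lines against the spread of the 2 infected cultures of a line, after the mean effect of the hairpin. In the line levels below, each line was set against the mean of the other 3. Being above or below the other 3 refers to that mean, so a single one of them can lie further out.

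XRCC6 was highest in SK-N-DZ (30218 and 31982), lower in NB-39-nu (15760 and 14294) and SK-N-BE (12981 and 12397), and lowest in SH-SY5Y (6464 and 7750). The lines did not overlap, and SH-SY5Y was lower than the other 3 by 1.35 on the log2 scale while SK-N-DZ was higher by 1.49 (SE 0.10 each; limma adjusted p = 2.5e-05 and 1.0e-05). XRCC5, its partner in Ku, was higher in SK-N-DZ by 1.27 (SE 0.13; limma adjusted p = 9.2e-05), at 31915 and 32915 against 11107 to 15609 in the other lines.

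ATM split the lines into a high and a low pair. Against the mean of the other 3, SK-N-BE was higher by 1.44 and SH-SY5Y by 0.72. NB-39-nu was at -1.06 and SK-N-DZ at -1.10. The SE was 0.17 for each line, with limma adjusted p from 2.5e-04 to 0.0083. CHEK1 was above the other 3 in SK-N-BE by 1.46 and at -1.33 in SK-N-DZ (SE 0.25 each; limma adjusted p = 0.0017 and 0.0026). MRE11 in SH-SY5Y stood at -1.64 against the other 3 (SE 0.22; limma adjusted p = 4.1e-04). TOPBP1 and TP53BP1 were low in NB-39-nu, at -1.19 and -1.14 (SE 0.12 and 0.17; limma adjusted p = 8.3e-05 and 7.2e-04). TOPBP1 read 1551.5 and 1284 there, while SH-SY5Y gave 3336 and 3246, SK-N-BE gave 3105 and 3074, and SK-N-DZ gave 3445 and 3232.

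RAD54L, the recombination motor, read 854 and 913 in SK-N-DZ, against 315 and 305 in NB-39-nu, 231 and 316 for SH-SY5Y and 365 and 384 for SK-N-BE (difference 1.46, SE 0.19; limma adjusted p = 3.4e-04). BLM (1.39), MSH6 (1.07) and FANCI (1.06) were also above the other 3 lines there. Against the mean of the other 3 lines, SK-N-DZ was higher for 20 of 49 members (40.8%), beside 24.9% of all tested genes. It was lower for 6 (12.2% beside 25.7%). SH-SY5Y was below the other 3 for 13 (26.5% beside 21.7%) and above them for 5 (10.2% beside 30.3%). NB-39-nu was below for 12 and above for 5 (24.5% and 10.2%, beside 23.6% and 24.5%), and SK-N-BE below for 6 and above for 12 (12.2% and 24.5%, beside 24.9% and 23.6%). Differences of at least 2-fold were fewer. NB-39-nu was that far below the other 3 for ATM, TOPBP1 and TP53BP1 (6.12% beside 9.07%) and above them for no member, beside 8.94%. SH-SY5Y was below for CHEK2, MRE11 and XRCC6 (6.12% beside 7.42%) and above for none, beside 12.1%. SK-N-BE was below for OGG1, RAD17 and XRCC4 and above for ATM, CHEK1 and MRE11 (6.12% each, beside 9.53% and 10.2%). SK-N-DZ was below for ATM and CHEK1 (4.08% beside 12%) and above for BLM, FANCI, MRE11, MSH6, RAD54L, XRCC5 and XRCC6 (14.3% beside 7.72%). Of the 26 proliferation genes, 24 were below the other 3 in SH-SY5Y and 15 above them in SK-N-DZ. Their part in the levels of the members was not tested.

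**Figure D3:**
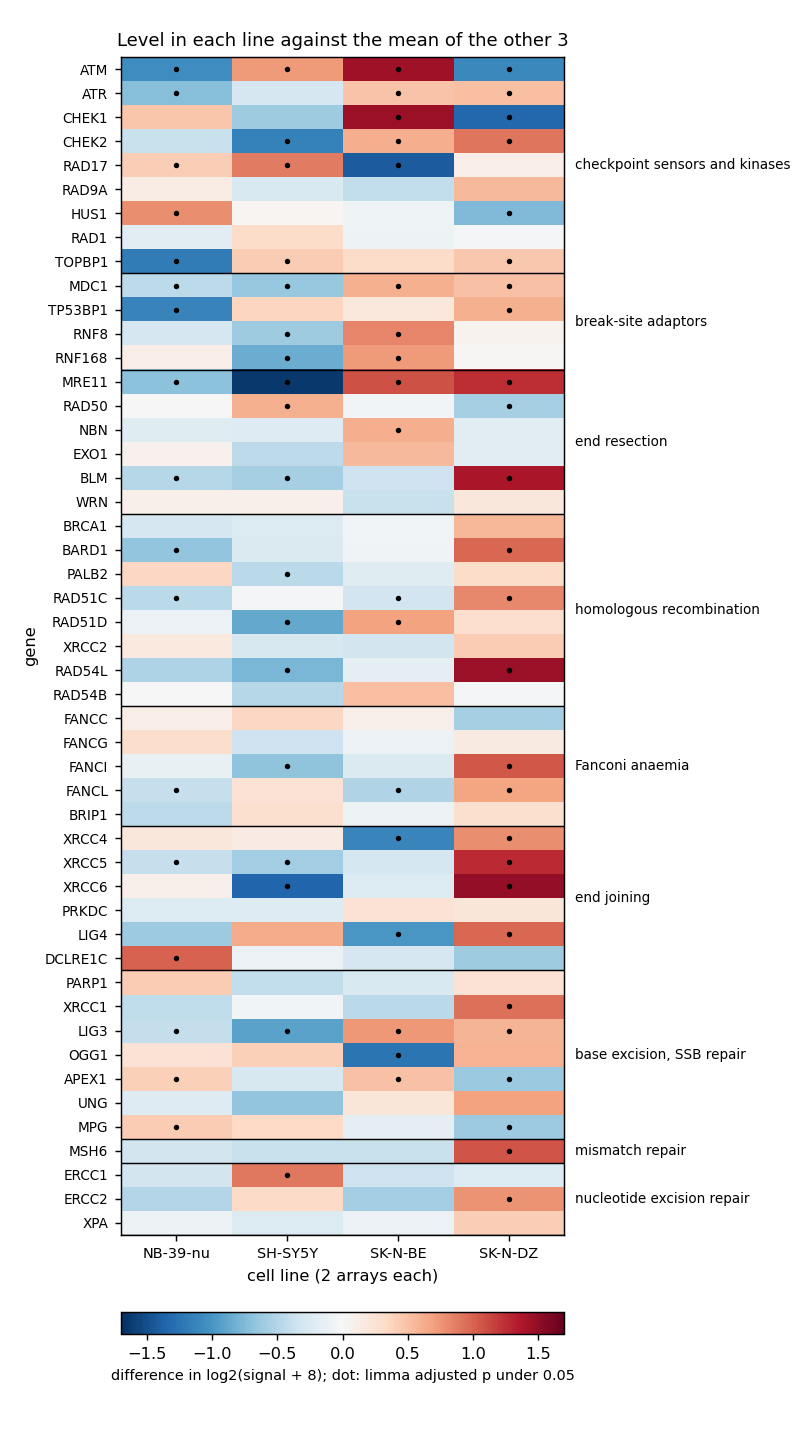
Difference in log2(signal + 8) between each cell line (x axis) and the mean of the other 3, for the 49 members (y axis, grouped by pathway), in a colour scale from blue (lower) to red (higher), with a dot where the limma adjusted p was under 0.05. SK-N-DZ has 20 dotted red cells, among them XRCC6 at 1.49, and SH-SY5Y has 13 dotted blue cells, with MRE11 lowest at -1.64.

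Of 93 other repair genes listed, 79 were tested and 0 passed over the 4 lines, with 3 lower and 3 higher at an unadjusted p under 0.05 in limma (3.8% each, beside 4.36% and 4.98% of all tested genes). The 2 highest means were those of H2AX, the histone phosphorylated at breaks, and CDC25A, the phosphatase that CHEK1 restrains, at 0.53 ± 0.40 and 0.53 ± 0.35 (SD, n = 4 lines; limma adjusted p = 0.387 and 0.404), each higher in 4 of 4 lines. The 2 lowest were the lesion-bypass polymerase POLI at -0.57 ± 0.17 (SD, n = 4 lines; limma adjusted p = 0.425), lower in 4 of 4 lines, and RAD18, a ligase for lesion bypass, at -0.55 ± 0.62. Of the 79, 37 were lower in NB-39-nu and higher in SH-SY5Y (46.8%), beside 26.2% of all tested genes and 27 of the 49 members. The pair of signs was thus not particular to the members. The 10 lesion-bypass genes had negative medians in each line, from -0.22 in SK-N-DZ to -0.06 in SK-N-BE.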

How the data were processed

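The authors deposited MAS5 signals, array intensity values on a linear scale with 1 value per probe set and array, and GCOS and MAS5 are the tools listed, without version, in the submitters' processing notes. The deposited values had a mean of 500 on each array after trimming 2% at each end. Genome build and present calls were not given in the sources used here. Probe sets annotated to 1 gene were named through the platform annotation and the RefSeq gene table of GRCh38.p14. BMI1 is read by a probe set shared with a read-through transcript.

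From the deposited intensity, log2(signal + 8) was computed, the brightest probe set kept per gene, and genes above the median mean level tested with limma 3.58.1 in R 4.3.3 (cell line as a block, eBayes with trend, Benjamini-Hochberg, threshold 0.05). Fold changes of dim genes are understated on this scale. Line levels used the same fit. Cell line pairs the arrays by the labels, and the lowest correlation between both arrays of a line was 0.940 (over probe sets), and the highest between lines 0.886. Where nothing says how cultures of a line were made, p-values measure the spread between these samples only. Simulated data with 9888 genes gave each changed gene the same change in all 4 lines, with normally distributed noise. On them, the test of knockdown recovered 89 of 100 genes changed by 1 on the log2 scale. It recovered 100 of 100 changed by 2, and there were 11 false calls. On the arrays it called 1 of 9888 genes. BMI1, with a mean log2 ratio of -1.15 and lower in 4 of 4 lines, had a limma adjusted p of 0.276. Recovery on the arrays themselves was not tested.

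Members and gene lists were chosen with earlier results of these data known. Members given with all 8 signals were those at an unadjusted p under 0.05, those with a mean of at least 0.25 in size and a shared direction, the 2 highest and 2 lowest means, those past 2-fold within a line, and the 2 largest level differences per line. Other members printed with signals were chosen after their values were seen. Alternatives were other pseudocounts, filters, quantile normalization, all probe sets, no block, no trend and each line left out.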

Additional observations from a re-analysis of the deposited data

Results flagged for a closer look

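Of 147 groups of 4 values checked (ratios, control levels and knockdown levels of the 49 members), 10 held a value far from the other 3, and chance gives about 1 in 20. In NB-39-nu the log2 ratio of ATR was -0.46 against -0.18 to -0.14 in the other lines, that of MDC1 was -0.30 against -0.03 to -0.0049, and that of RAD54B was -0.69 against 0.40 to 0.53. TOPBP1 was low in NB-39-nu in control cells (log2 level 10.61, others 11.60 to 11.75) and in knockdown cells (10.34, others 11.59 to 11.67). PRKDC was low in the knockdown cells of NB-39-nu (12.24, others 12.77 to 12.84).

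ERCC1 was high in the control cells of SH-SY5Y (10.91, others 9.93 to 9.99). In the knockdown cells of SK-N-DZ, XRCC5 was high at 15.01 (others 13.56 to 13.74), FANCG at 9.81 (others 9.47 to 9.52) and XPA at 9.80 (others 9.19 to 9.29).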

How the results depend on the processing

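No member passed over the 4 lines under any alternative run, and the lowest adjusted p of a member in limma ran from 0.259 (stricter filter) to 1.00 (no replicate block). The fit without the cell line block gave 0 members at an unadjusted p under 0.05, against 4 with it. That count was 1 with the stricter filter (30 members tested, NBN) and 1 with the mean of all probe sets (FANCG). With a line left out it ran from 2 to 7: it was 2 without SK-N-BE (ATM and NBN) or SK-N-DZ (NBN and OGG1), 5 without NB-39-nu and 7 without SH-SY5Y, where CHEK1, MRE11, PRKDC and RAD17 joined and ATM was lost. Members higher in every line were 2 with the mean of all probe sets (ERCC1 and NBN), and 5 to 11 with a line left out, where fewer lines have to agree. Members lower in every line were then 6 to 10. Members past the F test between lines were 23 of 30 with the stricter filter, beside 87.4% of all genes tested there. With a line left out they were 21 to 36 of 49. The lowest was without SK-N-DZ (beside 65.5% of all genes tested there) and the highest without NB-39-nu (beside 77.2%). For the other counts in this section, shares over all tested genes were not computed under the alternatives. Member values at least 2-fold apart within a line (4 as reported) numbered 2 with the table median as pseudocount, 1 with the stricter filter, 2 to 4 with a line left out, 5 with no pseudocount, 6 with no filter and 6 with the mean of all probe sets, where MRE11 and DCLRE1C left and ATR, BRCA1 and PRKDC entered. Members lower in NB-39-nu and higher in SH-SY5Y numbered 25 of 49 with the mean of all probe sets and 29 of 49 with quantile normalization, an alternative count added after seeing the data. The mean of all probe sets moved 5 members by over 1 SD (ATM, TP53BP1, XRCC4, XRCC6 and ERCC1) and changed the sign of 10. The median member change ran from -0.05 to 0.10 with a line left out.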
